A study of Mus musculus with 9 samples.

Results

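The ErbB family of the lactating mammary gland was described by 9 genes, the 4 receptor genes Egfr, Erbb2, Erbb3 and Erbb4 and the 5 ligand genes Egf, Tgfa, Hbegf, Btc and Ereg. Members were all probes whose gene name on the array equaled one of these symbols, control features being left out. This gave 24 probes, 16 for receptors and 8 for ligands, of 41174 probes and 27962 gene names in all. Mammary gland number 4 was taken from 4 WT dams and 5 hNAG-1 dams on lactation day 2 (L2) after the fourth litter, and each dam's RNA was hybridized to a 1-color Agilent whole mouse genome array of its own. All 9 dams carried the strain background that the labels spell C57BL/7. The hNAG-1 dams overexpress human NAG-1, also known as GDF15, from a transgene made to be expressed in all tissues, and the WT dams are wild type. The study kept 2 transgenic lines, focused on 1 of them and combined both in some experiments. Which of them the 5 hNAG-1 dams came from was not given in the labels.

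ErbB receptors are tyrosine kinases that sit in the cell membrane and act in pairs. EGFR binds EGF, TGF-alpha, amphiregulin, heparin-binding EGF, betacellulin and epiregulin, and ERBB3 and ERBB4 bind neuregulins. The ligands are not divided cleanly between the receptors, as ERBB4 also binds some of those named for EGFR. ERBB2 has no known ligand of its own and serves as a partner of the others, and the kinase of ERBB3 is weak, so that it signals through its partner. In the mouse mammary gland, EGFR is known for its part in duct growth and ERBB4 for its part in alveolar differentiation and milk production, in which it acts with STAT5. EGF itself is a milk growth factor.

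Every probe was 60 bases long, and its position is that of the array's design on build mm7. The following 3 probes are shown because they lie on the same stretch of the kinase-coding sequence in ERBB2, ERBB3 and ERBB4, and so show how near the receptors are to each other where the array reads them. Capitals mark the 33 bases that all 3 share when aligned without gaps, the Erbb3 probe starting 4 bases before the others.
Erbb2 A_51_P216179: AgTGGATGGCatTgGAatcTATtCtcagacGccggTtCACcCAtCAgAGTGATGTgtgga
Erbb3 A_51_P342050: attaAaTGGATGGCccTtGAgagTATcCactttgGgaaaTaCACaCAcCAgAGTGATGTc
Erbb4 A_51_P396034: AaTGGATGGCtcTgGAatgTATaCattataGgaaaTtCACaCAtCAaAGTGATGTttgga
The Erbb2 probe lies at chr11:98543549-98543608 on the plus strand, the Erbb3 probe at chr10:128073907-128073966 and the Erbb4 probe at chr1:68321019-68321078, both on the minus strand. Over the aligned bases the Erbb3 and Erbb4 probes were identical at 78.6%, the Erbb2 and Erbb4 probes at 70.0% and the Erbb2 and Erbb3 probes at 62.5%. No other pair of probes from different members was identical at more than 51.1% of at least 40 aligned bases.

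A further 3 probes are shown because the results below turn on them. The second Erbb3 probe shares the 40 bases in capitals with the Erbb3 probe above, so that these 2 probes are not separate readings of the transcript. The Erbb4 probe is the one that gave that gene a clear signal, and the Egfr probe reads the part of the transcript that codes for the outside of the receptor.
Erbb3 A_51_P488243: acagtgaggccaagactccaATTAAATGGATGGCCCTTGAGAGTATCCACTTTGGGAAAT
Erbb4 A_51_P283698: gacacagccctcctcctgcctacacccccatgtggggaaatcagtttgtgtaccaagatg
Egfr A_52_P56471: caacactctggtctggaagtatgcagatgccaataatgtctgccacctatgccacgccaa
The Erbb4 probe was placed at chr1:68285099-68286327 on the minus strand, where its 60 bases span 1229 bases of genome, and the Egfr probe at chr11:16835551-16835610 on the plus strand. Of the 24 probes, 17 carry an accession that RefSeq (assembly GRCm38.p6) lists, and in all 17 RefSeq gives the same gene symbol.

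Of the 3 slides that carried the arrays, 1 had WT 1 by itself and another, slide 2, had hNAG-1 1 to 4. The rest (WT 2 to 4 and hNAG-1 5) shared slide 3, the one slide where both genotypes met. Between 59.8% and 76.1% of the features of an array were well above background, and the 3 lowest shares were those of hNAG-1 2, 3 and 4 on slide 2. The mouse Gdf15 probe was well above background on all 9 arrays, and its mean scaled signal was 144 ± 50.4 (SD, n = 4) for WT dams against 76.7 ± 21.9 (SD, n = 5) for hNAG-1 dams. It matches the mouse gene and is no check of the human transgene. Markers of secretory epithelium such as Wap and Csn1s1, which code for milk proteins, stood well above background in all 9 dams.

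Of the 24 probes, 13 were higher and 11 lower in hNAG-1. With limma, 1 of them had an unadjusted p under 0.05, against 5.62% of all probes on the array (1.2% higher and 4.42% lower in hNAG-1). None had an adjusted p under 0.05 after Benjamini-Hochberg adjustment over all probes (lowest 0.654 by limma), and of all probes 0.00243% did. In none of the 24 were the genotypes free of overlap, as they were in 1.38% of all probes. Detection divided the family. A probe was counted as detected where the scanner software called it well above background. This held on all 9 arrays for 10 probes, 8 of receptors and 2 of ligands, while 3 probes were never detected. Over the 10 probes detected throughout, the median size of the log2 difference between genotypes was 0.022, beside 0.15 over the 23086 probes of the array detected throughout. Of these 10 probes 5 are of Egfr. Both medians were 0.21 with slide as a block. The genes are given below by their probe of highest mean signal, in scaled signal, which is the deposited intensity set to the same 75th percentile on every array.

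All 4 receptors were detected on every array, and their mean signals in WT and hNAG-1 differed by less than the spread between mice. Egfr, read by probe A_52_P106259 (chr11:16865821-16865880), measured 2758, 2131, 3122 and 3063 in WT 1 to 4 and 2541, 2270, 3108, 2837 and 2853 in hNAG-1 1 to 5. Every hNAG-1 value fell inside the WT range. The log2 fold change was -0.017 (SE 0.17, 95% interval -0.39 to 0.36). On the linear scale this interval runs from 0.761-fold to 1.28-fold, so changes larger than that lie outside it.

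Egfr has 6 probes, of which 4 are annotated to 2 transcript variants and 2 to cDNA clones. The probe above is annotated to variant NM_207655, while A_51_P392242 (chr11:16839391-16839450) is annotated to NM_007912, a shorter variant known to code for a secreted receptor without the kinase. The shorter variant's probe measured 553, 483, 874 and 828 in WT and 693, 651, 651, 736 and 565 in hNAG-1. It followed A_52_P56471, the extracellular probe printed above and also annotated to NM_007912, closely over the 9 arrays (r = 0.97, Spearman's rho = 0.98), and the 2 probes lie 3.78 kb apart. The log2 ratio of the shorter variant's probe to that of NM_207655 was -2.05 ± 0.22 (SD, n = 4) for WT dams, and it was -2.04 ± 0.24 (SD, n = 5) for hNAG-1 dams. The genotypes did not differ in it beyond that spread (exact permutation test, two-sided p = 0.992). This ratio was chosen after the values had been seen, and its size carries no meaning because probes differ in their response. The remaining probes A_52_P175190, annotated to a clone, and A_52_P674338, annotated to NM_207655, were detected on all arrays with log2 fold changes of 0.038 and 0.011. The sixth, A_52_P5855, annotated to the other clone, lies 127.8 kb or more from the others and was detected on 1 WT and 2 hNAG-1 arrays.

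Erbb2, the partner receptor, was read by A_52_P49250 (chr11:98545828-98545887). It measured 683, 442, 558 and 634 in WT and 706, 543, 718, 536 and 514 in hNAG-1. In 2 hNAG-1 dams it exceeded every WT value and the others lay inside the WT range. The log2 fold change was 0.062 (SE 0.19, 95% interval -0.35 to 0.48). The Erbb2 kinase probe printed above was dim, with means of 38.9 ± 3.44 for the 4 WT dams and 34.9 ± 8.44 for the 5 hNAG-1 dams (SD), and was detected on 4 of 4 and 4 of 5 arrays.

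Erbb4, the receptor tied to milk production, had the smallest spread between mice among the members' main probes detected throughout. Probe A_51_P283698 measured 3618, 3239, 3047 and 3189 in WT and 4051, 3076, 2778, 3496 and 3332 in hNAG-1, and the genotypes overlapped. The log2 fold change was 0.023 (SE 0.15, 95% interval -0.31 to 0.36). Its highest value over the 9 arrays was 1.46 times its lowest, and its spread between mice of a genotype exceeded that of 14.97% of the 23086 probes detected throughout. The kinase probe A_51_P396034, also of Erbb4, was not detected on any array. Another probe, A_52_P608535 (chr1:68589047-68589106), lies 303 kb from the first. It measured 48.1, 10.9, 73.2 and 36.1 in WT and 29.2, 5.63, 6.38, 17.3 and 25.9 in hNAG-1, and was detected on 3 WT arrays and 1 hNAG-1 array. Its log2 fold change was -1.33 (SE 0.68, exact permutation test, two-sided p = 0.127; adjusted p = 0.654 by limma), and -0.24 with slide as a block. The 3 hNAG-1 arrays with the fewest detected features held the 3 lowest hNAG-1 values. The lowest WT value, 10.9, was that of WT 2, the array with the highest share of detected features (76.1%). The part of that share in these values was not tested.

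**Figure D1:**
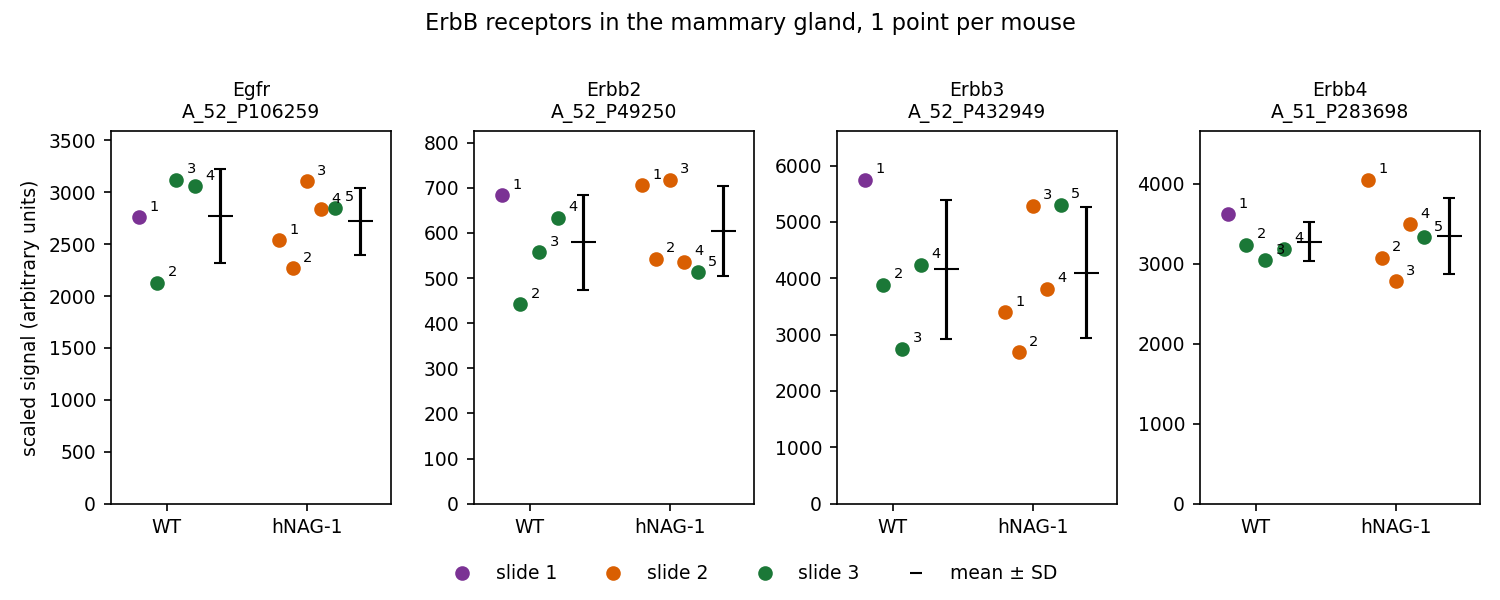
Scaled signal of the main probe of each receptor gene (vertical axis, from 0, arbitrary units) in every WT and hNAG-1 mouse, numbered and colored by slide, with the mean ± SD of the genotype in black. The genotypes overlap in all 4 genes; Erbb3 spreads widest, from 2688 to 5750, and Erbb4 from 2778 to 4051.

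Erbb3, the receptor with the weak kinase, varied most between mice among the main probes of the receptors. Probe A_52_P432949 (chr10:128069461-128069520) measured 5750, 3888, 2752 and 4241 in WT and 3393, 2688, 5289, 3816 and 5306 in hNAG-1. The highest value, in WT 1, was 2.14 times the lowest, in hNAG-1 2. WT dams averaged 4158 ± 1237 (SD, n = 4), and hNAG-1 dams 4098 ± 1166 (SD, n = 5). The log2 fold change was -0.021 (SE 0.27, 95% interval -0.64 to 0.60). With slide as a block, where hNAG-1 5 is set against WT 2 to 4, it was 0.57 (SE 0.42, adjusted p = 0.920 by limma).

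The same order of mice appeared in most of the 5 Erbb3 probes, which reach over 17.3 kb of mm7. The main probe correlated over the 9 arrays with A_51_P342050 (r = 0.85, rho = 0.93) and with A_52_P133607 (r = 0.83, rho = 0.88), the probe farthest from it and detected on 1 array, and less with A_51_P488243 (r = 0.61, rho = 0.68) and A_51_P414813 (r = 0.39, rho = 0.43). These are descriptions over 9 arrays that share their scaling. All 5 probes read WT 3, hNAG-1 2 and hNAG-1 4 below their own mean, and WT 4 and hNAG-1 5 above it. Since hNAG-1 5 is the one hNAG-1 array on slide 3, the log2 fold changes with slide as a block were 0.57 to 0.69 in the 4 probes detected in both genotypes, and none had an adjusted p under 0.05 (limma; 0.333% of all probes did). Without the block the same 4 ran from -0.37 to 0.20, and the fifth, A_52_P133607, was not detected in hNAG-1, so that no fold is given. The 2 sets of values thus rest on different dams, and the part of the slide was not tested. The 4 dimmer probes were detected on 8, 8, 5 and 1 of the 9 arrays.

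**Figure D2:**
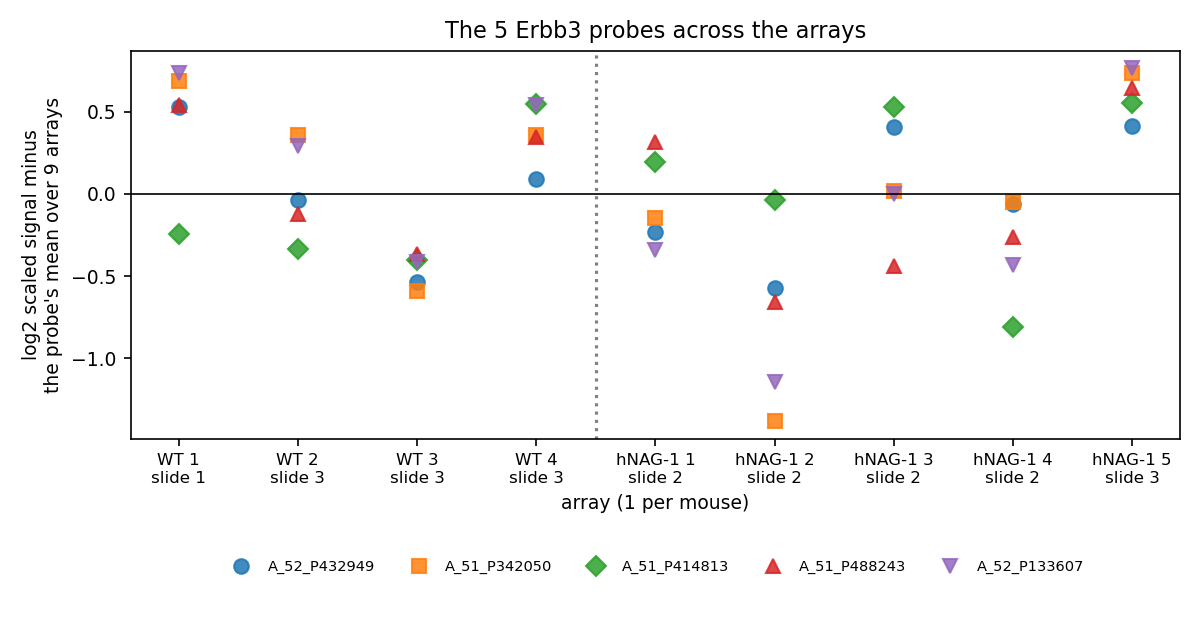
Log2 scaled signal of each of the 5 Erbb3 probes minus that probe's mean over the arrays (vertical axis) for the 9 arrays (horizontal axis, 1 per mouse, with its slide). All 5 symbols lie below 0 in WT 3, hNAG-1 2 and hNAG-1 4 and above 0 in WT 4 and hNAG-1 5; the main probe runs from -0.57 to 0.53.

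The 5 ligands fell into 2 groups by detection. Egf and Hbegf were detected on every array, whereas Tgfa, Btc and Ereg were at or near background. Egf, the milk growth factor, was read by a single probe (A_52_P38627, chr3:129517262-129517321). It measured 8087, 3511, 6664 and 5157 in WT and 8132, 10424, 4966, 7187 and 6087 in hNAG-1. The genotypes overlapped, with 2 hNAG-1 dams above every WT dam and the lowest value in WT 2. WT dams averaged 5855 ± 1968 (SD, n = 4), and hNAG-1 dams 7359 ± 2083 (SD, n = 5). Their log2 fold change was 0.35 (SE 0.29, 95% interval -0.30 to 1.00, adjusted p = 0.674 by limma). Its exact permutation p, two-sided, was 0.302, the lowest among the main probes of the 9 genes, where 126 assignments of the arrays allow a smallest p of 0.00794. On the linear scale the interval runs from 0.812-fold to 2.00-fold. Leaving out 1 array moved the log2 fold change to between 0.13, without WT 2, and 0.53, without WT 1.

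Hbegf, a membrane-bound ligand set free by proteases, was also read by a single probe, A_51_P181565. It measured 110, 117, 406 and 193 in WT and 229, 145, 113, 154 and 103 in hNAG-1. WT 3 was the highest of all arrays, and the others overlapped. The log2 fold change was -0.32 (SE 0.40, 95% interval -1.23 to 0.59) and 0.074 without WT 3. With slide as a block it was -1.03 (SE 0.65, adjusted p = 0.920 by limma). Its spread between mice exceeded that of 93.4% of the probes detected throughout, the widest among the 10 member probes in that set, and the highest value was 3.96 times the lowest.

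Tgfa codes for TGF-alpha, an EGFR ligand. Its probe A_51_P415126 (chr6:86349930-86349989) measured 18.4, 27.9, 21.5 and 22.0 in WT and 31.7, 9.75, 9.97, 15.3 and 30.9 in hNAG-1, and was detected on 1 WT array and no hNAG-1 array. The second probe, A_52_P555423, 2.59 kb away, measured 23.8, 20.3, 24.7 and 19.3 in WT and 29.5, 8.10, 7.10, 13.1 and 29.6 in hNAG-1, and was detected on 2 WT and 2 hNAG-1 arrays. In both probes hNAG-1 2, 3 and 4 lay below every WT value and hNAG-1 5 above. The hNAG-1 1 value also lay above, but for A_51_P415126 only 1 of its 10 spots exceeded their mean, and their median of 19.3 in scaled signal lay inside the WT range. Those 3 arrays are the ones with the lowest share of features above background (60.3%, 64.6% and 59.8%), and the part of that share in the Tgfa values was not tested.

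Btc, which codes for betacellulin, was detected on 1 of the 9 arrays by A_52_P672689 (chr5:91346189-91346248), which measured 20.3 to 24.3 in WT and 21.3 to 43.3 in hNAG-1. The other Btc probe, A_51_P138429, gave the one unadjusted p under 0.05 among the 24. It measured 4.94, 3.31, 5.00 and 4.71 in WT and 15.4, 6.11, 4.59, 14.0 and 11.0 in hNAG-1, so that 4 of 5 hNAG-1 dams lay above every WT dam. It was not detected on any array, its G and C content was 20%, the lowest of the members, and the software had put a surrogate value in place of the signal on 4 WT and 2 hNAG-1 arrays. No fold is given for it, its adjusted p was 0.654 by limma and its exact permutation p, two-sided, was 0.0714.

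Ereg, which codes for epiregulin, has 2 probes that the design places 40.7 kb apart on opposite strands, while the RefSeq gene is 19.0 kb long. A_51_P171215 (chr5:91080900-91080961, plus strand), annotated to the RefSeq transcript, was not detected on any array. A_51_P157223 (chr5:91040155-91040214, minus strand), annotated to the cDNA clone AK019057, was detected on 3 WT and 4 hNAG-1 arrays. Whether it reads Ereg could not be settled from its annotation, and it is given as the main probe only because its signal was the higher of the 2. It measured 15.6, 17.1, 54.6 and 61.1 in WT and 30.3 to 54.4 in hNAG-1. All hNAG-1 values lay between the 2 lower and the 2 higher WT values, and the genotypes differed by 0.41 on the log2 scale (SE 0.44).

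**Figure D3:**
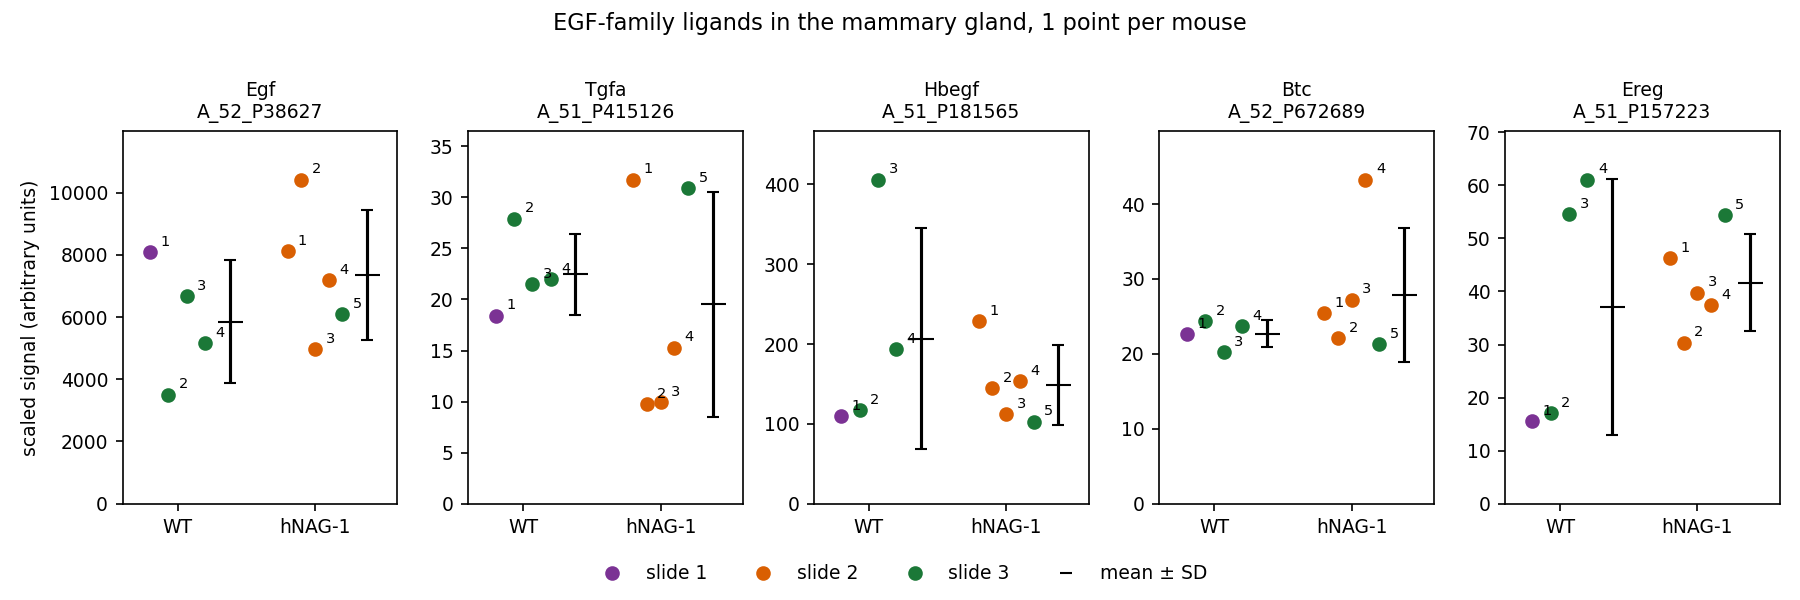
Scaled signal of the main probe of each ligand gene (vertical axis, from 0, arbitrary units) in every WT and hNAG-1 mouse, numbered and colored by slide, with the mean ± SD of the genotype in black. Egf lies between 3511 and 10424 and Hbegf between 103 and 406; Tgfa and Btc were detected on 1 of 9 arrays each, and whether the Ereg probe reads Ereg is not settled.

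The difference between genotypes can be set beside the slide for the 18 probes detected at least once in each genotype. Their 95% intervals all included 0. With slide as a block, the direction turned in 3 of the 4 main receptor probes, all of them near 0 without it, and held for Erbb4. It held for Egf (0.30) and Hbegf. The block left 1 of the 24 probes with an unadjusted p under 0.05, beside 7.58% of all probes. This was the Ereg probe A_51_P171215, which was never detected. On 4 of 4 WT and 4 of 5 hNAG-1 arrays it held a surrogate value in place of the signal.

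**Figure D4:**
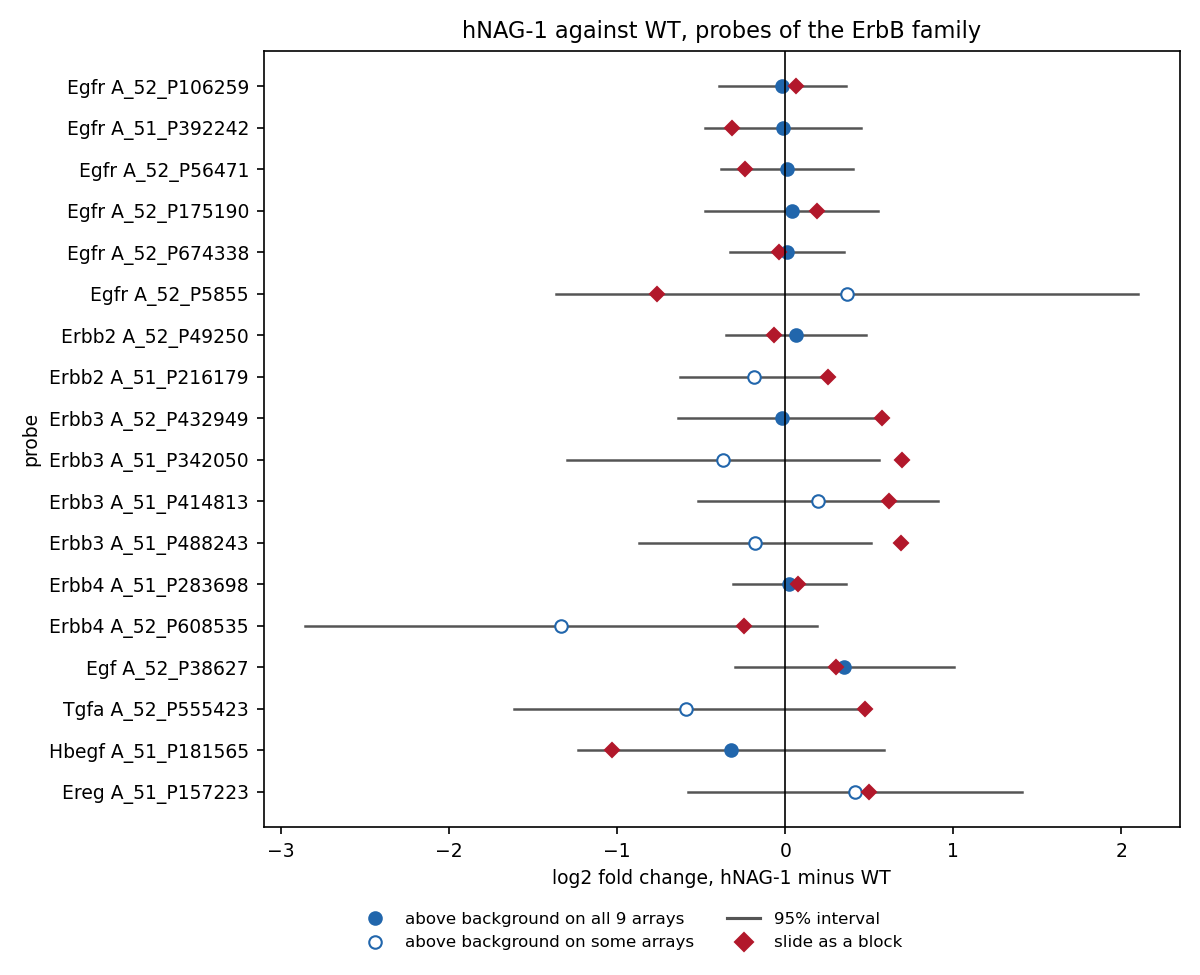
Log2 fold change of hNAG-1 against WT (horizontal axis) with its 95% interval for the 18 member probes detected at least once in each genotype, and the value with slide as a block (diamonds). Every interval crosses 0; the widest is that of Egfr A_52_P5855, from -1.36 to 2.10, and the block moves the Erbb3 probes to 0.57 or more.

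For 5 probes the array itself gives the error between spots, because each was printed 10 times. The 10 spots of an array had a median SD of 0.042 on the log2 scale for Egfr A_52_P106259, 0.082 for Egfr A_51_P392242, 0.065 for Erbb2 A_52_P49250 and 0.056 for Egf A_52_P38627. The SD between mice of a genotype was 0.21, 0.30, 0.25 and 0.46 for the same probes. The SD between mice also holds the error of labeling and hybridization, which the spots of 1 array share. A single array stood out, hNAG-1 1, where 1 or more of the 10 spots of Egfr A_52_P106259 fell to 875 of unscaled intensity against a median of 1810, and the coefficient of variation was 17.5%. For Tgfa A_51_P415126 the spots had a median SD of 0.47 and the mice 0.65, and on hNAG-1 1 the spots ranged from 8.33 to 94.0 around a median of 12.9.

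**Figure D5:**
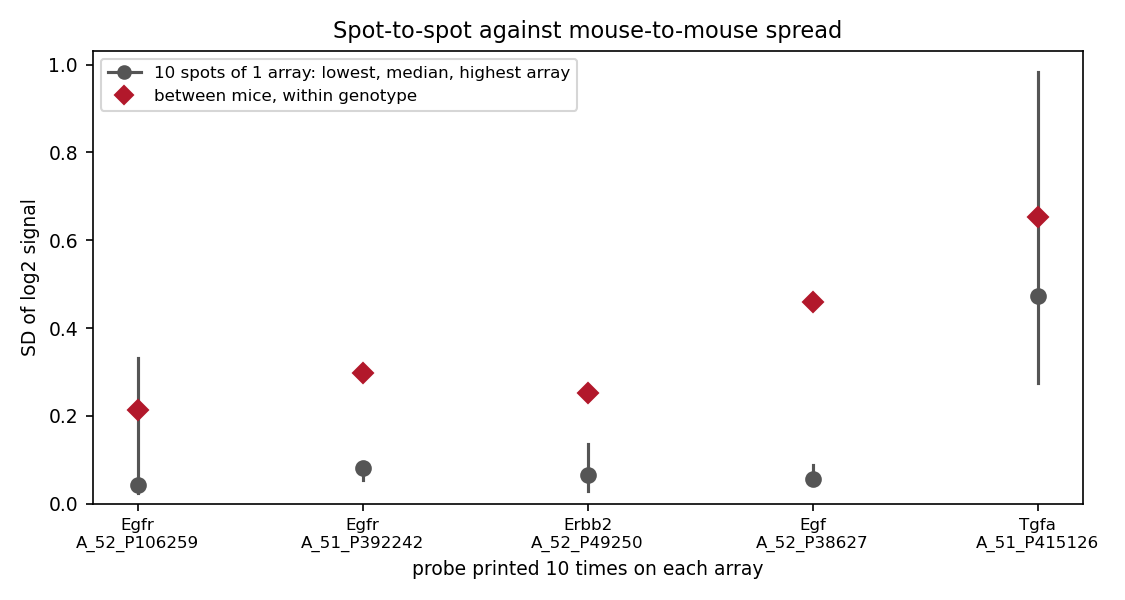
SD of the log2 signal (vertical axis, from 0) for the 5 member probes printed 10 times per array: the lowest, median and highest of the 9 arrays over their spots (gray), and the SD between mice of a genotype (diamonds). Egf has 0.056 at its median array and 0.46 between mice, Tgfa 0.47 and 0.65.

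The genes around the receptors were read from 5 lists with 77 genes, of which 75 had a probe, each gene by its probe of highest mean signal. In hNAG-1 46 were higher and 29 lower, with a median log2 fold change of 0.047 beside -0.014 over all probes. Without WT 2 the balance turned, with 35 higher and 40 lower and a median of -0.027. Unadjusted p-values under 0.05 were found in 3 genes, or 4.00%, against 5.62% of all probes, and none passed after adjustment (limma, lowest adjusted p = 0.654). The genotypes did not overlap in 3 of the 75 genes (4.00%, against 1.38% of all probes), which were Cblb, Ier2 and Lrig2. Lrig2, which codes for a membrane protein related to LRIG1, which restrains ErbB receptors, measured 986 to 1055 in WT and 927 to 967 in hNAG-1 (log2 fold change -0.12, SE 0.11), and is named because its values were seen. A second Lrig2 probe, also detected on all arrays, gave -0.099 (SE 0.13) with overlapping genotypes, and the third was never detected.

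Of the other ligands, Nrg4, a neuregulin that binds ERBB4, measured 124 to 988 in WT and 321 to 986 in hNAG-1 (log2 fold change 0.92, SE 0.57). Its lowest value was that of WT 1, without which the log2 fold change was 0.38, and without WT 4 it was 1.38. Epgn, which codes for epigen, an EGFR ligand, measured 63.7 to 90.7 in WT and 37.9 to 77.9 in hNAG-1 (-0.45, SE 0.23), and -0.044 with slide as a block. Nrg1 was detected on 8 of 9 arrays. Areg, the gene of amphiregulin, which drives duct growth in puberty, and Nrg3 were not detected on any array. With all arrays none of the 5 measured genes of this list had an unadjusted p under 0.05. Nrg4 had one without WT 4 (beside 4.14% of all probes) and Epgn without hNAG-1 5 (14.4%).

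Of the 9 genes for release and trafficking of ligands, 7 were higher and 2 lower, and none had an unadjusted p under 0.05. Without WT 2 this was 4 and 5, and without hNAG-1 3 or hNAG-1 5 it was 5 and 4. Adam17, the protease that releases TGF-alpha and amphiregulin, measured 1038 on average in WT and 1131 in hNAG-1. Adam10, which releases EGF and betacellulin, had a log2 fold change of -0.061 (SE 0.16). Rhbdf1, which codes for a partner of ADAM17, had the largest positive one of the list, 0.47 (SE 0.27), and 0.14 with slide as a block. It was 0.28 without WT 2. Without WT 4 it was 0.66, with an unadjusted p under 0.05 (beside 4.14% of all probes).

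Of the 19 inhibitors, 9 were higher and 10 lower (6 and 13 without WT 2). With all arrays 1 (5.26%) had an unadjusted p under 0.05, beside 5.62% of all probes. There were 3 without WT 1 (beside 4.98% of all probes), and 2 without WT 2 (4.31%), WT 3 (3.95%), hNAG-1 2 (2.82%) or hNAG-1 5 (14.4%). The 1 called with all arrays was Cblb, which codes for a ubiquitin ligase that marks activated receptors for breakdown. It measured 59.4, 53.4, 25.5 and 26.9 in WT and 24.7, 9.19, 12.5, 8.65 and 17.2 in hNAG-1, so that every hNAG-1 dam lay below every WT dam. It was detected on 3 WT arrays and 1 hNAG-1 array. The 3 lowest values were those of hNAG-1 2, 3 and 4, the arrays with the lowest share of features above background. The part of that share in the Cblb values was not tested. The log2 fold change of Cblb was -1.53 (SE 0.39, adjusted p = 0.654 by limma) and -0.95 with slide as a block. A second Cblb probe, detected on 1 array, gave -0.19 (SE 0.69). Errfi1, which codes for a feedback inhibitor of the EGFR kinase, had the largest positive log2 fold change of the list (0.39, SE 0.27) and -0.033 with slide as a block. Spry2, a feedback inhibitor of the ERK pathway, had -0.43 (SE 0.21) and 0.050 with slide as a block, while its second probe gave -0.14 (SE 0.19).

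Of the 27 adaptors and relay proteins, 20 were higher and 7 lower, with a median log2 fold change of 0.096 and none with an unadjusted p under 0.05. Without WT 2 this was 16 and 11, with a median of 0.064. All were detected on every array but Gab2, which was detected on none. Pik3r1, the regulatory subunit of PI3 kinase, had 0.52 (SE 0.28), and 0.24 without WT 2. Its other 3 probes, also detected on all arrays, gave 0.38, 0.35 and 0.021. Plcg1, phospholipase C gamma, had -0.12 (SE 0.23). Stat5a, the transcription factor through which ERBB4 and prolactin act on milk genes, measured 7843 on average in WT and 8502 in hNAG-1 (0.096, SE 0.30). Its direction turned with slide as a block (-0.38), without WT 2 (-0.12) and without hNAG-1 1 (-0.071).

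Of the 15 measured genes that respond to ERK, 7 were higher and 8 lower, and 2 (13.3%) had an unadjusted p under 0.05, against 5.62% of all probes. Ier2, an immediate early gene, measured 1980.5, 2315, 2612 and 2587 in WT and 3617, 2812, 3482, 2924 and 3122 in hNAG-1, every hNAG-1 dam lying above every WT dam. Its log2 fold change was 0.43 (SE 0.15, adjusted p = 0.654 by limma) and 0.32 with slide as a block, while its second probe gave 0.074 (SE 0.19). Etv5, an ETS factor downstream of ERK, measured 59.2, 61.1, 83.1 and 73.6 in WT and 27.7, 33.2, 22.4, 19.9 and 79.2 in hNAG-1. The 4 hNAG-1 arrays of slide 2 lay below every WT array and hNAG-1 5, on slide 3, lay among them. For Etv5 the log2 fold change was -1.11 (SE 0.38) and 0.14 with slide as a block, and a second Etv5 probe gave -0.22 (SE 0.31). The main Etv5 probe was detected on 6 of the 9 arrays. Without hNAG-1 5 its log2 fold change was -1.44, with an adjusted p of 0.0376 by limma. In that fit 14.4% of all probes had an unadjusted p under 0.05. Genotype and slide cannot be told apart in it, since without hNAG-1 5 no slide holds both genotypes. Ccnd1, which codes for cyclin D1, had 0.44 (SE 0.36) and -0.39 with slide as a block.

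Other genes of this list were called with slide as a block. Neither Ier2 nor Etv5 kept an unadjusted p under 0.05, whereas Jun, Egr1, Egr2, Myc, Ier3 and Phlda1 had one (6 of 15, beside 7.58% of all probes). In this fit the genotypes are compared through hNAG-1 5 by itself, which is assumed to vary like the other arrays. Slide 3 alone gives the same log2 fold changes from the same single hNAG-1 array, so it is no separate reading. Egr1, a zinc finger transcription factor, measured 877, 1457, 1036 and 1155 in WT and 1012, 800, 833, 1144 and 401 in hNAG-1. The lowest value was that of hNAG-1 5, and the log2 fold change went from -0.49 (SE 0.30) to -1.59 (SE 0.32, adjusted p = 0.110 by limma). Jun went from 0.071 to 1.31, Ier3 from 0.37 to 1.32, Phlda1 from 0.35 to 1.06, Egr2 from -0.22 to -1.16 and Myc from -0.29 to -0.85. The smallest adjusted p of these 6 was that of Egr1, and the part of the slide was not tested.

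Cell types of the gland were read from marker lists, which do not show which types carry these receptors. In tissue RNA fewer cells of a type and less RNA per cell cannot be told apart. The 8 measured markers of secretory epithelium, where ERBB4 acts, were all higher in hNAG-1 by value. Their median log2 fold change was 0.13, and none had an unadjusted p under 0.05. Without WT 2 only 1 of the 8 was higher (median -0.040), and with slide as a block 5 were higher and 3 lower. The 7 of myoepithelium were higher by value (median 0.34, 1 with an unadjusted p under 0.05, beside 5.62% of all probes). Their median was 0.12 without WT 2, and with slide as a block none had such a p (median 0.21). The 7 of adipocytes were higher by value as well (0.45), and Adipoq, which codes for adiponectin, measured 9193 in WT 1 and 30700 to 33210 in the other WT dams. Without WT 1 the median of the adipocyte markers was 0.055 with 2 of 7 lower, and with slide as a block 0.14 with 2 of 7 lower. The 4 of endothelium were higher (0.20, and 0.086 without hNAG-1 2), and all 4 were lower with slide as a block (-0.25). The 5 of fibroblasts were higher (0.29, and 0.13 without WT 2 or 0.11 without hNAG-1 3). Without WT 1, 3 of them were higher and 2 lower, and with slide as a block 4 and 1. Of the 5 macrophage markers 1 was higher and 4 lower, and without WT 2 this was 4 and 1. The 7 lymphocyte markers were all lower by value, with a median of -1.35 and 1 unadjusted p under 0.05 (beside 5.62% of all probes). Their summed signal ran from 938 to 11146 in WT and from 540 to 1816 in hNAG-1. The highest sum was that of WT 2, where Ccr7, which codes for a chemokine receptor of lymphocytes, measured 1859 against 35.2 to 251 in the other WT dams. Without WT 2 all 7 were still lower, with a median of -0.60 and none with an unadjusted p under 0.05. In contrast, 4 had one without WT 4 (beside 4.14% of all probes), 3 without WT 3 (3.95%) and 2 without hNAG-1 5 (14.4%). The call was also lost without WT 1, hNAG-1 1, hNAG-1 2 or hNAG-1 3 and with slide as a block. None of these markers passed after adjustment by limma, and their part in the values of the family was not tested.

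The genes whose pattern over the 9 arrays was most like that of a receptor were sought among the 23086 probes detected throughout, by Pearson's r of log2 signals, as a description. For Egfr these were Ppm1a (r = 0.97, rho = 0.98) and Wnt6 (0.95, rho = 0.92), and 15 probes reached an r of 0.9. For Erbb2 they were Tns1 (0.98, rho = 0.97) and 3021401C12Rik (0.97, rho = 0.98), with 45 such probes. For Erbb3 they were Synj2 (0.96, rho = 0.98) and Arrdc1 (0.95, rho = 0.90), with 17, and for Erbb4 Sufu (0.97, rho = 1.00) and Nt5dc3 (0.96, rho = 0.88), with 42. None of these was another member of the family.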

How the data were processed

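The authors extracted RNA with TRIzol, labeled it with Cy3 and deposited the output of Agilent Feature Extraction version 9.5 (9.5.3.1 per the file headers) as intensity per feature (gProcessedSignal), background-subtracted and not scaled between arrays. The deposited series table held the same intensity values (largest difference 0). The flags for detection, saturation, outliers and surrogates came from the same files. Replicate spots were averaged, each array was divided by the 75th percentile of its 41174 probes and log2 was taken. The fit across all probes used lmFit and eBayes (two-sided, no covariate) of limma 3.58.1 under R 4.3.3, with Benjamini-Hochberg adjustment. The code was tested on simulated data. Exact permutation tests used all 126 assignments of the arrays. The number of mice, 4 and 5, limits the precision, and 1 array per dam leaves hybridization error inside the spread between mice.

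Samples were grouped by their labels. The members, gene lists and markers were chosen with earlier results of these data known. Named were all members, and in each list the genes with an unadjusted p under 0.05 and the largest rise and fall among genes detected on every array of a genotype. For each receptor the 2 probes most like it were named. Other genes are named as examples chosen after their values were seen. Alternatives were normexp (offset 50), quantile, median or no scaling, a filter on dim probes, outlier spots left out, the methods' test, slide 3 alone, slide as a block (fixed or random), a replicate block, the mean over a gene's probes and each array left out. Probes not detected in 1 genotype had no fold above 1 against the lowest detected signals (14.4 to 31.7 per array), so none is given. Protein sequences were not used here.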

Additional observations from a re-analysis of the deposited data

Results flagged for a closer look

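Among 34 sets of 4 or 5 arrays tested for a sample far from the rest of its genotype, 2 were flagged, and chance flags about 1 in 20. Erbb3 probe A_51_P414813 measured 56.9 in WT 4 and 29.6 to 32.9 in the other WT dams, a gap of 0.836 of the WT range on the log2 scale (0.877 on the linear scale), past Dixon's 95% critical value for 4 arrays. The probe of the Btc gene that was never detected, A_51_P138429, read 3.31 in WT 2 and 4.71 to 5.00 in the other WT dams. On all 4 WT arrays the software had put a surrogate value in place of the signal. The gap was 0.855 of the range on the log2 scale, also past the critical value, while on the linear scale it was 0.828 and was not.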

How the results depend on the processing

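Under the alternatives, 0 of the 24 member probes passed an adjusted p under 0.05 by limma in any setting. Beside that, the number with an unadjusted p under 0.05, 1 in the comparison reported, was 0 after normexp background correction (beside 2.58% of all probes) and 0 with the filter on dim probes (7.23%), and it was 2 with median scaling (8.76%), 2 without scaling (5.02%) and 2 on slide 3 alone (8.99%). With slide as a fixed block it was 1, which was Ereg A_51_P171215, never detected, in place of Btc. Leaving out 1 array gave 1 to 2 member probes, with Erbb3 A_52_P133607, detected on 1 array, added without hNAG-1 5 (beside 14.4% of all probes) and Erbb4 A_52_P608535 without hNAG-1 1 (6.91%). Leaving out WT 2 gave 1 (beside 4.31%), which was Erbb4 A_52_P608535 in place of Btc. In the lists, 3 genes had an unadjusted p under 0.05, and 7 did with median scaling, 6 with slide as a fixed block (beside 7.58% of all probes), 5 on slide 3 alone, and 3 to 6 when 1 array was left out (6 without WT 4, beside 4.14% of all probes, 5 without hNAG-1 2, beside 2.82%, and 5 without hNAG-1 5, beside 14.4%). Of the calls of Cblb, Ier2 and Etv5, all 3 were lost with slide as a fixed block, where the 6 genes called were all ERK response genes, and on slide 3 alone. Normexp lost those of Cblb and Etv5, the filter on dim probes, which removes its probe, that of Cblb, and the fit without scaling, the replicate block and the fit without WT 1 each that of Ier2. After adjustment 0 passed, and 0 to 1 when 1 array was left out. The 1 was Etv5 without hNAG-1 5, a fit in which no slide holds both genotypes, so that genotype and slide cannot be told apart. All 9 exact tests of the main probes stayed above 0.05 wherever they were repeated.

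The median log2 fold change of all probes was -0.014, 0.20 with median scaling and -0.16 without scaling, so fold changes near 0 turn with the scaling. Directions were followed for 39 fold changes, those of the 18 member probes detected in both genotypes and of 21 list genes. With median scaling, Egfr A_52_P106259 turned to 0.19, Egfr A_51_P392242 to 0.20, Erbb2 A_51_P216179 to 0.025, Erbb3 A_52_P432949 to 0.19 and A_51_P488243 to 0.032, Adam10 to 0.15, Lrig2 to 0.091 and Plcg1 to 0.090. Without scaling, Egfr A_52_P56471 turned to -0.14, A_52_P175190 to -0.11 and A_52_P674338 to -0.14, Erbb2 A_52_P49250 to -0.088, Erbb4 A_51_P283698 to -0.13, Adam17 to -0.035, Stat5a to -0.054 and Jun to -0.078. With normexp, Erbb2 A_51_P216179 turned to 0.035, Erbb3 A_51_P488243 to 0.082, Tgfa A_52_P555423 to 0.043 and Adam10 to 0.058, and with quantile normalization the same 4 turned to 0.17, 0.31, 0.044 and 0.14 and Erbb4 A_51_P283698 to -0.039. With slide as a fixed block, and equally on slide 3 alone, the turned values were 0.063 for Egfr A_52_P106259, -0.24 for A_52_P56471, -0.040 for A_52_P674338 and -0.76 for A_52_P5855, -0.068 for Erbb2 A_52_P49250 and 0.26 for A_51_P216179, 0.57 for Erbb3 A_52_P432949, 0.69 for A_51_P342050 and 0.69 for A_51_P488243, 0.47 for Tgfa A_52_P555423, -0.38 for Stat5a, -0.033 for Errfi1, 0.050 for Spry2, 0.14 for Etv5 and -0.39 for Ccnd1. With slide as a random block, Egfr A_52_P56471 turned to -0.00069 and Erbb3 A_52_P432949 to 0.0061. The cause was not tested for any of these. Leaving out 1 array turned 14 of the 39, of which Hbegf (-0.32) and Egfr A_52_P5855 (0.37) did not lie near 0, with ranges of -0.14 to 0.047 for Egfr A_52_P106259, -0.17 to 0.12 for A_51_P392242, -0.10 to 0.11 for A_52_P56471, -0.17 to 0.19 for A_52_P175190, -0.075 to 0.085 for A_52_P674338, -0.18 to 0.78 for A_52_P5855, -0.061 to 0.15 for Erbb2 A_52_P49250, -0.20 to 0.15 for Erbb3 A_52_P432949, -0.049 to 0.088 for Erbb4 A_51_P283698, -0.55 to 0.074 for Hbegf A_51_P181565, -0.16 to 0.060 for Adam10, -0.12 to 0.23 for Stat5a, -0.23 to 0.35 for Jun and -0.25 to 0.0017 for Plcg1.

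WT and hNAG-1 share replicate numbers 1 to 4. Same-numbered arrays deviated from their genotype means with correlations of 0.28, -0.20, -0.14 and -0.31. For number 1 the same-numbered hNAG-1 array was the one most like the WT array, and for numbers 2 to 4 it was not. The mice were not treated as pairs, though these correlations cannot exclude a pairing. With the replicate number as a block, 2 member probes had an unadjusted p under 0.05 and 4 list genes, beside 13.1% of all probes, and Egfr A_51_P392242 turned to 0.040, A_52_P175190 to -0.015 and Jun to -0.23. Signal over background limits the 14 probes not detected on at least 1 array, and the number of mice and the slides limit the 10 detected throughout.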
